A study of Mus musculus with 6 samples.

Results

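The serotonin receptors were followed at the mRNA level in bronchial smooth muscle cells (BSMCs) of mice with experimental asthma. The 8 receptors Htr1b, Htr1d, Htr2a, Htr2b, Htr2c, Htr3a, Htr4 and Htr7 were taken by gene symbol, and each was measured by 1 of 20239 probe sets that carry a gene symbol. BSMCs came from double transgenic αSMA-hrGFP;NG2-DsRed mice, labelled as C57BL/6J, in which a rat α-SMA promoter drives the green protein in smooth muscle and a mouse NG2 (Cspg4) promoter drives the red protein in pericytes and vascular smooth muscle. Cells were sorted from lung as CD45-, CD31-, hrGFP+ and DsRed- and profiled on Mouse Gene 1.0 ST arrays.

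The asthma group (OVA 1 to OVA 3) was sensitized with 50 µg ovalbumin (OVA) on days 0 and 7, challenged with OVA on days 14 to 18 and analysed on day 19. The control group (PBS 1 to PBS 3) carried the same transgenes and had the same OVA challenge, with PBS in place of OVA at sensitization. That control treatment is given by the paper, whereas the protocol in the sample labels gives OVA sensitization for every sample. The labels also name single animals and microdissected tissue, whereas the Methods describe RNA pooled from several mice for each array. The p-values therefore measure the spread between these RNA samples. OVA 2 stood apart from the other 5 arrays, with a median correlation of 0.9603 to them, against 0.9835 to 0.9907 for each of the others. Its levels were compressed, with an SD over probe sets of 1.72, against 1.98 to 2.04 on the others, and probe sets of low level tended to be raised on it. The Methods leave out 1 asthma array as an outlier without naming it, so the comparison was made with OVA 1 and OVA 3 against the 3 PBS arrays, and is given beside all 6 arrays.

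Serotonin (5-hydroxytryptamine) is made from tryptophan, and in the mouse airway it is released by mast cells, platelets and neuroendocrine cells. Its receptors fall into classes by how they signal. Receptors of the 5-HT1 class act through Gi/o proteins and lower cyclic AMP, those of the 5-HT2 class act through Gq proteins and raise calcium, the 5-HT3 receptors are cation channels, and the 5-HT4 and 5-HT7 receptors act through Gs proteins and raise cyclic AMP. Serotonin contracts mouse airway smooth muscle, mainly through the 5-HT2A receptor, whereas Gs-coupled receptors in general relax smooth muscle.

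Htr2a, the gene of the contractile 5-HT2A receptor, was the one serotonin receptor that lay above the array median on every array, and the one that differed between the groups at an unadjusted p under 0.01. Its log2 level was 9.87 on OVA 1, 8.80 on OVA 2 and 10.11 on OVA 3, against 9.42, 8.98 and 9.35 on PBS 1, PBS 2 and PBS 3. OVA 1 and OVA 3 lay above every PBS array, and OVA 2 lay below every PBS array. Over OVA 1 and OVA 3 the level averaged 9.99 ± 0.16 (SD, n = 2) in OVA BSMCs and 9.25 ± 0.24 (SD, n = 3) in PBS BSMCs. The log2 fold change was 0.74 (SE 0.158, 95% interval 0.36 to 1.13), a 1.67-fold higher level in OVA BSMCs, with an unadjusted p of 0.00319 and an adjusted p of 0.48 by limma. Htr2a therefore passed the threshold of 0.01 and did not pass the false-discovery rate (FDR) of 0.25 that was used beside it. With all 6 arrays the log2 fold change was 0.34 (SE 0.334, 95% interval -0.44 to 1.13), with an adjusted p of 0.892 by limma, and the groups overlapped. In these bulk samples, more cells that express Htr2a and more Htr2a mRNA per cell cannot be told apart.

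**Figure D1:**
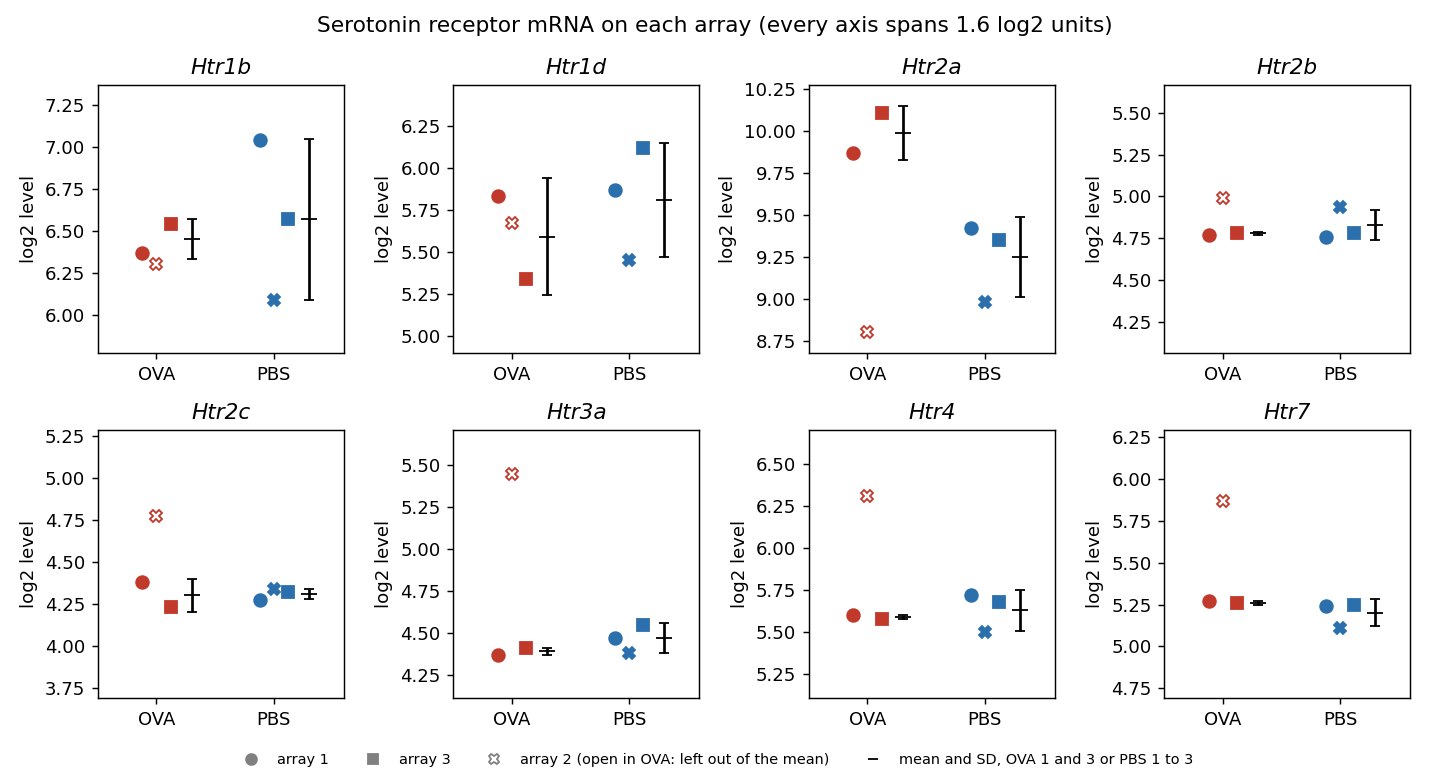
Log2 level of each serotonin receptor on every array, OVA at left and PBS at right in each panel, on axes of equal span, with open crosses for OVA 2 and bars for the mean and SD of OVA 1 and OVA 3 or of the 3 PBS arrays. Htr2a is the receptor whose OVA 1 and OVA 3 points (9.87 and 10.11) stand clear of the PBS points (8.98 to 9.42), while OVA 2 is below them at 8.80 and is the highest array for Htr2b, Htr2c, Htr3a, Htr4 and Htr7.

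Of the 8 receptors, 1 was called at an unadjusted p under 0.01, beside 1.97% of all probe sets in either direction and 0.963% in the direction of Htr2a, higher in OVA BSMCs. At an unadjusted p under 0.05 the count was again 1 of 8, beside 9.31% of all probe sets. By limma 0 of the 8 passed an FDR under 0.25, which 0.0395% of all probe sets passed. With all 6 arrays, 0 of the 8 receptors had an unadjusted p under 0.01 by limma and 0 had one under 0.05, beside 0.86% and 4.54% of all probe sets. Both OVA 1 and OVA 3 lay above every PBS array for 2 of the 8 receptors, Htr2a and Htr7, beside 11.9% of all probe sets. With OVA 2 included this held for 1 of 8, Htr7, beside 4.16% of all probe sets.

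The sequence before the annotated start of Htr2a is shown because Htr2a is the receptor on which the comparison turns. It covers the 250 bases before the start on the plus strand of chromosome 14, chr14:74640624-74640873 of GRCm38.p6, from RefSeq, with its 1 GC box in capitals.
Htr2a: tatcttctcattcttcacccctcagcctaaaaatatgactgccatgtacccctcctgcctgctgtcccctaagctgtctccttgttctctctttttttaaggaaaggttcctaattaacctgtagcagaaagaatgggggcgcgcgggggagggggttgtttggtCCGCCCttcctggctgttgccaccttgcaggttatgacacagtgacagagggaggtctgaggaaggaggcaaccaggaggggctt
Both strands were searched in the 250 bases before each start for the GC box GGGCGG, the STAT6 motif TTCNNNNGAA and the SMAD motif CAGACA. The CArG box, which serum response factor binds in many smooth muscle genes, was searched only as CC, 6 bases of A or T, and GG. The GC box of Htr2a reads on the minus strand, 85 to 80 bases before the start, and overlaps none of the other motifs. A GC box was held by 32.7% of the 32851 promoters in the table. The letters of the CArG box (1.47% of promoters), the STAT6 motif (5.85%) and the SMAD motif (17.1%) were not in the Htr2a window. Of the 12 smooth muscle markers, 8 had a promoter in the table, and the CArG box was in 0 of these 8 windows. Of the 8 receptors, 6 had a promoter in the table, 7 promoters in all. Among these, Htr1d also held a GC box, Htr1b held the STAT6 motif, and Htr2b and Htr2c held the SMAD motif. A match describes the letters and not binding. Sites that vary from these exact letters would be missed, so the lack of a match does not show that a site is absent.

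The other receptors of the Gq-coupled class lay low on every array. Htr2b, whose 5-HT2B receptor is known from fibroblasts and pulmonary arteries, had log2 levels of 4.77, 4.99 and 4.78 on OVA 1 to OVA 3, against 4.76, 4.94 and 4.78 on PBS 1 to PBS 3. The groups overlapped, and OVA 1 and OVA 3 lay within the PBS range. The log2 fold change of Htr2b was -0.05 (95% interval -0.27 to 0.17), with an adjusted p of 0.87 by limma.

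Htr2c encodes the 5-HT2C receptor, which is known mainly from brain and choroid plexus. Its log2 levels were 4.38, 4.77 and 4.23 on OVA 1 to OVA 3, against 4.27, 4.34 and 4.32 on PBS 1 to PBS 3. OVA 1 lay above and OVA 3 below all PBS arrays, and OVA 2 was the highest of all. For Htr2c the log2 fold change was 0.00 (95% interval -0.22 to 0.21), with an adjusted p of 0.993 by limma. Htr2b and Htr2c lay under the lower quartile of all probe sets on each of the 6 arrays, as did Htr3a.

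The Gi/o-coupled receptors had the widest spread between control arrays. Htr1b, whose 5-HT1B receptor is a presynaptic autoreceptor and constricts some blood vessels, had log2 levels of 6.37, 6.30 and 6.54 on OVA 1 to OVA 3, against 7.04, 6.09 and 6.57 on PBS 1 to PBS 3. All 3 OVA arrays lay between PBS 2 and PBS 3, and the PBS arrays alone spanned 0.96. The log2 fold change of Htr1b was -0.12 (SE 0.265, 95% interval -0.76 to 0.53), with an adjusted p of 0.905 by limma.

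Htr1d, the gene of the 5-HT1D receptor, a relative of 5-HT1B on nerve endings and vessels, had log2 levels of 5.83, 5.67 and 5.34 on OVA 1 to OVA 3, against 5.87, 5.45 and 6.12 on PBS 1 to PBS 3. OVA 3 lay below all PBS arrays, and OVA 1 and OVA 2 lay within the PBS range. For Htr1d the log2 fold change was -0.23 (SE 0.233, 95% interval -0.79 to 0.34), with an adjusted p of 0.764 by limma. The intervals of Htr1b and Htr1d are wide enough to hold a difference as large as that of Htr2a in the lower direction.

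Htr3a encodes a subunit of the 5-HT3 cation channel, which gives fast responses in neurons. Its log2 levels were 4.37, 5.45 and 4.41 on OVA 1 to OVA 3, against 4.47, 4.38 and 4.55 on PBS 1 to PBS 3. OVA 2 was far above the other 5 arrays, which lay between 4.37 and 4.55. For Htr3a the log2 fold change was -0.08 (95% interval -0.29 to 0.14) with OVA 1 and OVA 3, and 0.28 (95% interval -0.40 to 0.95) with all 6 arrays, with adjusted p-values of 0.794 and 0.892 by limma.

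The receptors that couple to Gs proteins did not pass the test either. Htr4, whose 5-HT4 receptor is known for its part in gut motility, had log2 levels of 5.60, 6.31 and 5.58 on OVA 1 to OVA 3, against 5.72, 5.50 and 5.68 on PBS 1 to PBS 3. Apart from OVA 2, the OVA arrays lay within the PBS range. The log2 fold change of Htr4 was -0.05 (95% interval -0.28 to 0.19), with an adjusted p of 0.898 by limma.

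Htr7, whose 5-HT7 receptor relaxes vascular smooth muscle, had log2 levels of 5.27, 5.87 and 5.26 on OVA 1 to OVA 3, against 5.24, 5.11 and 5.25 on PBS 1 to PBS 3. All 3 OVA arrays lay above all PBS arrays, but the lowest OVA array exceeded the highest PBS array by 0.0095, which is less than the PBS range of 0.14. For Htr7 the log2 fold change was 0.06 (95% interval -0.15 to 0.28) with OVA 1 and OVA 3, and 0.27 (95% interval -0.18 to 0.71) with all 6 arrays, with adjusted p-values of 0.823 and 0.892 by limma. OVA 2 exceeded both other OVA arrays by more than they exceeded the PBS arrays.

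**Figure D2:**
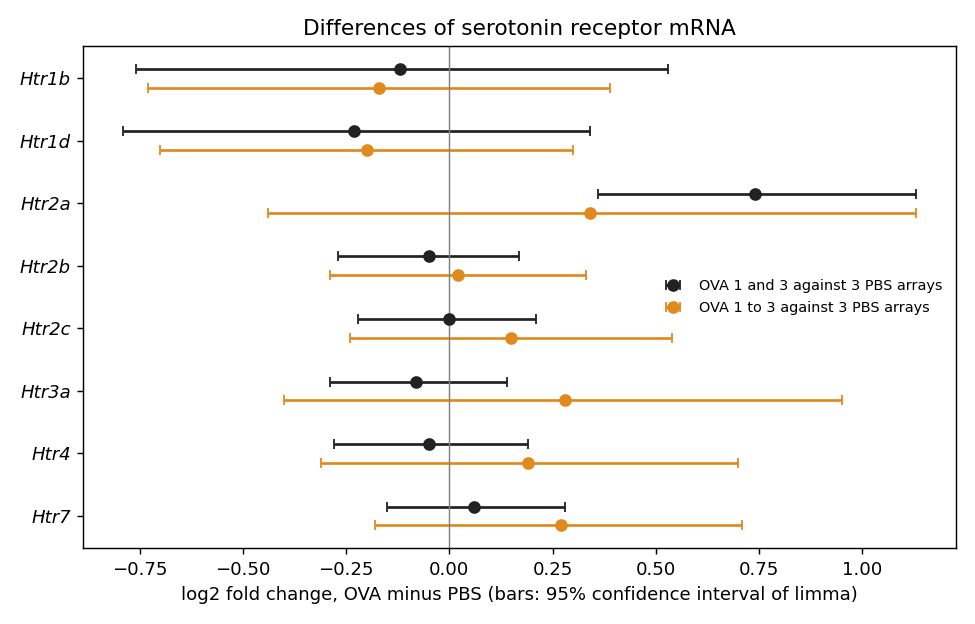
Log2 fold change of each serotonin receptor, OVA minus PBS, with its 95% confidence interval from limma, in black for OVA 1 and OVA 3 and in orange for OVA 1 to OVA 3, each against the 3 PBS arrays. The interval of Htr2a in black (0.36 to 1.13) does not include 0, whereas the intervals of the other 7 receptors do in either colour.

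The sign of the differences changed with OVA 2 for several receptors. With OVA 1 and OVA 3, 6 receptors had a log2 fold change under 0 and 2 above it, and with all 6 arrays, 2 were under 0 and 6 above it. OVA 2 was the highest of all arrays for 5 receptors, Htr2b, Htr2c, Htr3a, Htr4 and Htr7, and the lowest for 1, Htr2a. Levels of the 7 receptors other than Htr2a ran between 4.23 and 7.04, and array medians between 6.73 and 6.79. Over all probe sets, OVA 2 minus the mean of its 5 companions fell by 0.168 for each log2 unit of that mean. Its part in the order of the receptors was not tested. After cyclic loess over all 6 arrays, which makes intensity ranges alike, Htr2a stood at 9.83, 9.10 and 10.02 on OVA 1 to OVA 3, against 9.35, 8.93 and 9.29 on PBS 1 to PBS 3, so that OVA 2 then lay within the PBS range.

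Htr2a and the smooth muscle markers moved together from array to array. The 12 smooth muscle markers, which include Acta2, Myh11, Tagln and Cnn1, had a mean log2 level of 10.98, 10.26 and 11.28 on OVA 1 to OVA 3, against 10.99, 9.90 and 10.55 on PBS 1 to PBS 3. With OVA 1 and OVA 3, 12 of 12 markers had a higher mean in OVA BSMCs, with a median log2 fold change of 0.62, beside -0.02 over all probe sets. With all 6 arrays these medians were 0.37 and 0.03. Of all 20239 probe sets, 8848 were higher and 11391 lower with OVA 1 and OVA 3. Acta2, the actin whose promoter drives the green reporter, had a log2 fold change of 0.35 and the myosin gene Myh11 one of 0.62, with adjusted p-values of 0.556 and 0.577 by limma. Of the 12 markers, 3 had an unadjusted p under 0.05 by limma and 0 had one under 0.01, with a lowest adjusted p of 0.48. Over all probe sets the shares under 0.05 and 0.01 were 9.31% and 1.97%. Over the 6 arrays, Pearson's r between Htr2a and single markers ran between 0.25 and 0.93 with a median of 0.88, and it was above 0.75 for 11 of 12. Without OVA 2 it ran between 0.77 and 0.96. These correlations describe 6 arrays that share their normalization. They were taken for the smooth muscle list alone, so they do not show that the likeness is particular to smooth muscle. Mean levels of the pericyte and vascular smooth muscle markers and of the leukocyte markers were, like Htr2a, highest on OVA 3 and lowest on OVA 2. For fibroblast markers this order was reversed.

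Relative to the mean of these markers on the same array, Htr2a stood at -1.11, -1.46 and -1.17 on OVA 1 to OVA 3, against -1.57, -0.92 and -1.20 on PBS 1 to PBS 3, on the log2 scale. The OVA arrays then lay within the PBS range. The difference was 0.09 with OVA 1 and OVA 3 (two-sided exact permutation test, p = 0.8, where the smallest p possible is 0.2) and -0.02 with all 6 arrays (exact permutation test, p = 1, smallest possible 0.1). Neither test could reach 0.05 with so few arrays. Single pairs of arrays went both ways. OVA 1 and PBS 1 had nearly equal marker means, 10.98 and 10.99, and Htr2a was at 9.87 on OVA 1 and 9.42 on PBS 1. OVA 2 had a higher marker mean than PBS 2, 10.26 against 9.90, and a lower Htr2a level, 8.80 against 8.98. The level relative to the markers was added as a measure after the data were seen.

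**Figure D3:**
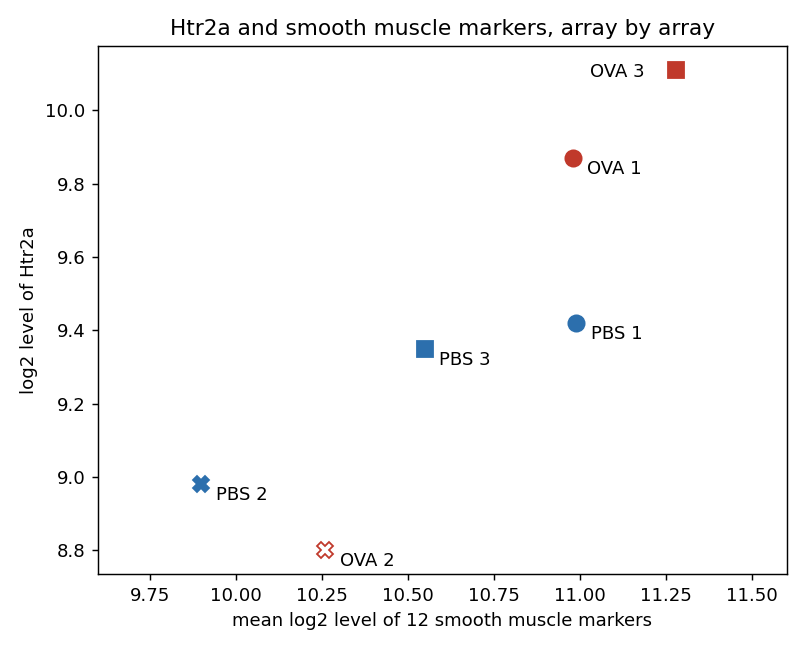
Log2 level of Htr2a (vertical axis) against the mean log2 level of 12 smooth muscle markers (horizontal axis), with 1 point per array, red for OVA and blue for PBS, and OVA 2 open. Htr2a is highest on OVA 3, where the marker mean is also highest (11.28), and lowest on OVA 2 and PBS 2, where the marker means are lowest (10.26 and 9.90).

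Markers of other cell types the sort could hold also differed between arrays. Counts here and below stand beside 9.31% of all probe sets at an unadjusted p under 0.05 and 1.97% under 0.01. With all 6 arrays these shares were 4.54% and 0.86%. Counts of higher and lower genes stand beside 8848 higher and 11391 lower of all 20239 probe sets with OVA 1 and OVA 3. The 10 leukocyte markers had a mean log2 level of 8.51, 6.78 and 8.87 on OVA 1 to OVA 3, against 7.33 to 8.38 on the PBS arrays, and 10 of 10 were higher with OVA 1 and OVA 3, 0 of them at an unadjusted p under 0.05 by limma. Ptprc, which encodes the CD45 antigen of the gate, was at 8.09, 6.18 and 8.31 on OVA 1 to OVA 3, against 6.84, 8.10 and 7.77 on the PBS arrays. The leukocyte mean thus lay above the array median on 5 of 6 arrays in spite of the CD45- gate, OVA 2 being the exception. Endothelial markers, in spite of the CD31- gate, had a mean above the array median on all 6 arrays. So did markers of pericytes and vascular smooth muscle, in spite of the DsRed- gate. The 10 macrophage markers averaged 7.43, 6.88 and 7.68 on OVA 1 to OVA 3, against 6.66 to 7.38 on the PBS arrays, and the 7 eosinophil markers 5.76, 5.48 and 5.85, against 4.93 to 5.34. With OVA 1 and OVA 3, 3 macrophage markers were higher and 1 lower at an unadjusted p under 0.05 by limma, and 2 eosinophil markers were higher, 1 of them at a p under 0.01.

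The 8 markers of pericytes and vascular smooth muscle averaged 9.12, 8.56 and 9.39 on OVA 1 to OVA 3, against 8.84 to 9.34 on the PBS arrays, with 5 higher and 3 lower, and 1 in each direction at an unadjusted p under 0.01 by limma. Cspg4, the gene of the red reporter's promoter, had a log2 fold change of 0.14 and an adjusted p of 0.881 by limma. The 9 epithelial markers averaged 7.38, 6.82 and 7.21 on OVA 1 to OVA 3, against 7.56 to 7.95 on the PBS arrays, and 9 of 9 were lower, 5 of them at an unadjusted p under 0.05 by limma and 1 at a p under 0.01. With all 6 arrays, 6 epithelial markers had a p under 0.05 and 2 a p under 0.01. The 8 endothelial markers averaged 8.51, 7.08 and 8.57, against 8.66 to 9.46, and the 6 mesothelial markers 7.18, 6.85 and 6.76, against 6.83 to 8.04. The 8 fibroblast markers averaged 11.16, 11.41 and 10.98, against 11.02 to 11.28, and the 8 neuronal and Schwann cell markers 5.49, 5.72 and 5.65, against 5.54 to 5.63. At an unadjusted p under 0.05, 0 endothelial and 0 mesothelial markers differed by limma with OVA 1 and OVA 3, 1 fibroblast marker was lower, and 1 neuronal or Schwann cell marker was higher and 1 lower. By limma over all 6 arrays, 2 endothelial, 2 fibroblast, 2 eosinophil and 1 macrophage marker had an unadjusted p under 0.05. Of the pericyte and vascular smooth muscle markers 1 did, also at a p under 0.01, and of the leukocyte, mesothelial, neuronal and Schwann cell markers 0 did. The median log2 fold change of the endothelial markers was -0.44 with OVA 1 and OVA 3 and -0.95 with all 6 arrays. The part of these cells in the Htr2a difference was not tested.

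The 5 genes whose levels were most like those of Htr2a over the 6 arrays were Tgfb1i1 (r = 0.993), P3h2 (0.992), Rgs5 (0.989), Nupl2 (0.989) and Ssr3 (0.986). In all, 79 genes had an r of 0.95 or more, and the median r over all other probe sets was -0.22. Tgfb1i1, which encodes a focal adhesion adaptor induced by TGF-β1, was at 10.77 on OVA 1 and 10.97 on OVA 3, against 10.13 to 10.53 on the PBS arrays, and lower on OVA 2 than on any of these. Rgs5, a regulator of G protein signaling that marks pericytes, was at 9.47, 7.99 and 10.01 on OVA 1 to OVA 3, against 8.78, 8.36 and 8.67 on PBS 1 to PBS 3. Both shared with Htr2a that OVA 3 was highest, OVA 1 next and OVA 2 lowest. The 5 genes were picked by their likeness to Htr2a on these same arrays. Their shared order and higher levels on OVA 1 and OVA 3 therefore follow largely from that choice. Rgs5 had a log2 fold change of 1.13 (SE 0.197, adjusted p = 0.413 by limma) with OVA 1 and OVA 3, and P3h2, a collagen prolyl 3-hydroxylase, one of 0.87 (SE 0.193, adjusted p = 0.48). With all 6 arrays the values were 0.55 for Rgs5 and 0.36 for P3h2. Rgs5 had the highest log2 fold change of the 8 pericyte and vascular smooth muscle markers with OVA 1 and OVA 3. Over these 8 the median was 0.11 and the lowest value -0.44, and 3 were lower in OVA BSMCs.

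The other serotonin receptors on the arrays, Htr1a, Htr1f, Htr3b, Htr5a, Htr5b and Htr6, had log2 levels between 4.88 and 6.32 on the PBS arrays. Of these 6, 0 had an unadjusted p under 0.05 by limma, and their median log2 fold change was -0.08. OVA 2 was the highest array for 6 of 6. Htr6, a Gs-coupled receptor of the brain, had the lowest p of the 6, with levels of 6.18, 6.61 and 5.79 on OVA 1 to OVA 3, against 6.22, 6.32 and 6.26 on PBS 1 to PBS 3, and an adjusted p of 0.556.

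Genes that make, store, take up and break down serotonin did not pass the test. Of the 14 listed, 12 were measured, 5 had a higher and 7 a lower mean in OVA 1 and OVA 3, 0 had an unadjusted p under 0.05 by limma, and the median log2 fold change was -0.03. Tph1, the rate-limiting enzyme of serotonin synthesis outside the brain, was at 4.57, 5.03 and 4.52 on OVA 1 to OVA 3, against 4.57, 4.63 and 4.73 on PBS 1 to PBS 3. Tph2, its neuronal counterpart, had a log2 fold change of -0.14 (adjusted p = 0.715). Ddc, the decarboxylase of the next step, had one of 0.07 (adjusted p = 0.891). For their cofactor, tetrahydrobiopterin, the synthesis gene Gch1 had a log2 fold change of -0.22 and the recycling gene Qdpr one of 0.02, with adjusted p-values of 0.705 and 0.966 by limma.

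Slc6a4, the serotonin transporter that clears it from outside the cell, was at 5.37, 5.60 and 5.35 on OVA 1 to OVA 3, against 5.30, 5.65 and 5.54 on PBS 1 to PBS 3, so that the groups overlapped. The vesicle transporters Slc18a1 and Slc18a2 had log2 fold changes of -0.02 and -0.04, and Slc29a4, a low-affinity monoamine transporter, one of 0.04. Maob, which encodes 1 of the monoamine oxidases that break serotonin and other amines down, was at 9.63, 8.72 and 9.61 on OVA 1 to OVA 3, against 9.68, 9.69 and 9.63 on PBS 1 to PBS 3. Maoa, the oxidase with the higher affinity for serotonin, had a log2 fold change of 0.01 (adjusted p = 0.981 by limma), and Aanat, which leads from serotonin towards melatonin, one of 0.02 (adjusted p = 0.953). Of the markers of cells that release serotonin, 2 of 8 for mast cells, 2 of 6 for platelets and 3 of 6 for neuroendocrine cells had a higher mean with OVA 1 and OVA 3, and 0 had an unadjusted p under 0.05 by limma. The 8 mast cell markers averaged 5.29, 5.42 and 5.28 on OVA 1 to OVA 3, against 5.33 to 5.39 on the PBS arrays, the 6 platelet markers 6.46, 6.79 and 6.60, against 6.53 to 6.90, and the 6 neuroendocrine markers 5.26, 5.83 and 5.25, against 5.28 to 5.36.

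**Figure D4:**
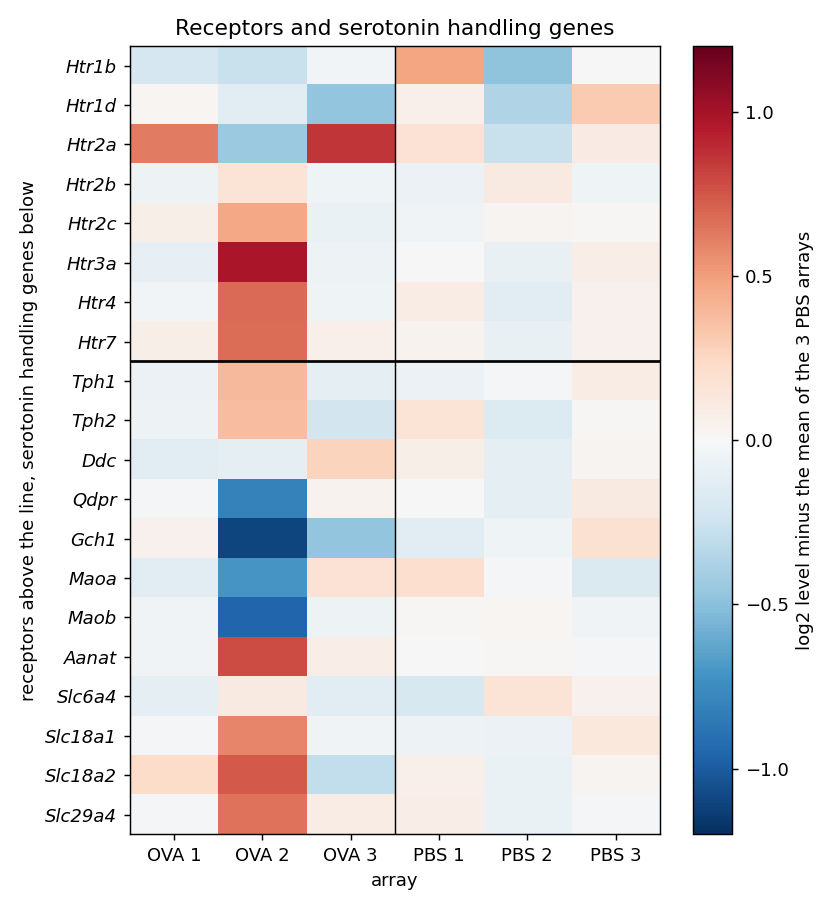
Log2 level of the 8 receptors and 12 serotonin handling genes on each array minus the mean of the 3 PBS arrays, with OVA arrays at left and PBS arrays at right, red for higher and blue for lower. Htr2a is red on OVA 1 and OVA 3 and blue on OVA 2, and the OVA 2 column departs from the others in both directions, with Htr3a red and Gch1 and Maob blue.

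Counts in the signaling arms below the receptors stand beside 1.97% of all probe sets at an unadjusted p under 0.01 and 9.31% under 0.05. The genes named are those of the smallest p in each arm. With all 6 arrays, the groups did not overlap, in either direction, for 12% of all probe sets. In the Gq arm, on which the Htr2a receptor acts, 13 of 14 listed genes were measured and 1 had an unadjusted p under 0.01, Prkce, in the lower direction. Prkce, a protein kinase C isoform, was at 8.06, 8.25 and 7.83 on OVA 1 to OVA 3, against 8.27, 8.40 and 8.35 on PBS 1 to PBS 3. All OVA arrays lay below all PBS arrays. For Prkce the log2 fold change was -0.40 (SE 0.104, adjusted p = 0.48 by limma), and -0.29 with all 6 arrays. Prkcd, another protein kinase C, and Plcb3, a phospholipase C, had log2 fold changes of 0.27 and 0.23, and Itpr2, a calcium release channel of the endoplasmic reticulum, one of -0.31, with adjusted p-values of 0.536, 0.565 and 0.59 by limma. The median over the Gq arm was -0.05.

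In the Gi/o arm 11 genes were measured and 1 had an unadjusted p under 0.05 by limma. This was Gnao1, the α subunit of Go, at 8.02, 7.93 and 8.19 on OVA 1 to OVA 3, against 8.64, 8.63 and 8.22 on PBS 1 to PBS 3. All OVA arrays lay below all PBS arrays. For Gnao1 the log2 fold change was -0.39 (SE 0.153, adjusted p = 0.532 by limma). Gnaz, Gnai3 and Gnai2, other α subunits of this class, had log2 fold changes of 0.12, 0.10 and 0.08, and the median of the arm was 0.04.

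In the Gs arm 15 of 16 genes were measured and 1 had an unadjusted p under 0.05 by limma. This was Rapgef3, the cyclic AMP sensor Epac1, at 7.46, 7.30 and 6.93 on OVA 1 to OVA 3, against 7.55, 7.91 and 7.63 on PBS 1 to PBS 3. All OVA arrays lay below all PBS arrays. For Rapgef3 the log2 fold change was -0.50 (SE 0.188, adjusted p = 0.517 by limma). The protein kinase A subunits Prkaca and Prkar2a had log2 fold changes of 0.19 and 0.23, and the adenylyl cyclase Adcy8 one of -0.21, and the median of the arm was -0.02.

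Of the arrestins, receptor kinases and binding partners of serotonin receptors, 10 of 11 were measured, 0 had an unadjusted p under 0.05 by limma, and the median log2 fold change was -0.09. Arrb1, an arrestin that ends signaling of active receptors, had a log2 fold change of -0.21 (SE 0.116, adjusted p = 0.597 by limma). The scaffold Mpdz, which binds the 5-HT2C receptor, and the receptor kinases Grk5 and Grk3 had log2 fold changes of -0.19, -0.20 and 0.19, with adjusted p-values of 0.61, 0.646 and 0.626 by limma.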

How the data were processed

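BSMC RNA of 6 samples, 3 OVA and 3 PBS, was measured on whole-transcript arrays. The deposited values are log2 levels, 1 probe set per Entrez gene, which the authors background corrected, normalized and summarized for all arrays together. The submitters' notes name RMA and affy and the Methods name fitProbeLevelModel of oligo; for neither is a version given in the sources used here, nor a genome build. Arrays have no read depth, and their number limits the precision.

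Of 21225 probe sets, 20239 had 1 symbol and were tested, and 986 without one were left out. Groups came from the sample titles. Log2 fold changes, OVA minus PBS, came from limma 3.58.1 (lmFit, then eBayes; R 4.3.3). Two-sided p-values were adjusted by Benjamini-Hochberg across the 20239 and read at an unadjusted p under 0.01 and an FDR under 0.25. Single values relative to markers were compared by exact permutation. The fit was checked on simulated data. Named are the 8 receptors, every serotonin handling gene measured, up to 4 genes of each other pathway list with the smallest p, Acta2, Myh11, Ptprc and Cspg4, and the 5 genes most correlated with Htr2a. The receptors, lists and tests were chosen with earlier results of these data known. Alternatives were all 6 arrays, array weights, leaving out each array, a filter on low values, other normalizations, an intensity trend with robust variance, and a replicate block.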

Additional observations from a re-analysis of the deposited data

How the results depend on the processing

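The log2 fold change of Htr2a stayed above 0 under every alternative except 1, and kept an unadjusted p under 0.01 by limma under quantile normalization, median centring, the filter on low values (which left 4 of the 8 receptors), the intensity trend with robust variance and gene-by-gene array weights. It lost that call with all 6 arrays (0.34), after cyclic loess (0.46), with the replicate block over all 6 arrays (0.34) and without OVA 3 (0.62). Relative to the smooth muscle markers it was 0.09 with OVA 1 and OVA 3 and -0.02 with all 6 arrays. Leaving out 1 array at a time gave 0.60 to 0.86, where a lone OVA array is assumed to vary like the PBS arrays. The weights, 0.0852 for OVA 2 and 1.05 to 3.3 for the others, were the 1 setting where Htr2a passed an FDR of 0.25 (0.66, adjusted p = 0.198), and 1 receptor then passed it, beside 2.78% of all probe sets. These weights were chosen after seeing the data, since the planned REML weights could not be fitted.

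The count of receptors called at p under 0.01 was 0 with all 6 arrays, after cyclic loess and with the block over all 6 arrays, and 0 to 1 when leaving out 1 array. The count of receptors whose groups did not overlap was 1 with all 6 arrays, after the filter, quantile normalization, median centring and cyclic loess, and 2 to 6 when leaving out 1 array, the highest without PBS 2 and 4 without OVA 1 or OVA 3. Among all probe sets, 28.7% did not overlap in either direction with OVA 1 and OVA 3, and 12% with all 6 arrays. This share was 40.7% without PBS 1, 40.2% without PBS 2, 43.4% without PBS 3, 62.1% without OVA 1 and 49.9% without OVA 3. It was 28.7% after quantile normalization, 28.8% after median centring and 12.6% after cyclic loess. The filter left 4 of the 8 receptors, so its count is 1 of 4, beside 31.1% of the probe sets it kept. Over all genes, the count at p under 0.01 was 398, against 174 with all 6 arrays, 238 after cyclic loess, 743 with array weights, 186 with the block over all 6 arrays, and 109 to 575 when leaving out 1 array, the lowest without OVA 3. The count at an FDR under 0.25 was 8, against 1 with all 6 arrays or the filter, 2 after cyclic loess or with the block over all 6 arrays, 38 with the block over 3 and 2 arrays, 563 with array weights, and 0 to 68 when leaving out 1 array, the highest without PBS 3.

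Receptors that were not called changed sign. With all 6 arrays, and likewise with the block over all 6, Htr2b was at 0.02, Htr2c at 0.15, Htr3a at 0.28 and Htr4 at 0.19. Cyclic loess gave 0.02 for Htr2c, 0.14 for Htr3a and 0.08 for Htr4, and Htr2c was at 0.04 with array weights and with quantile normalization. Leaving out 1 array gave -0.36 to 0.12 for Htr1b, -0.47 to 0.02 for Htr1d, -0.08 to 0.00 for Htr2b and -0.08 to 0.07 for Htr2c.

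Samples with the same number did not deviate together (correlations of -0.107, -0.036 and 0.015). The OVA deviations were taken from a mean that includes OVA 2, so this check cannot exclude a pairing. With the replicate block over 3 and 2 arrays Htr2a was at 0.60, Htr2b at 0.00 and Htr2c at 0.01, and 493 genes had p under 0.01.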
